A study of Homo sapiens with 6 samples.

Results

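The genes described here carry glucose to pyruvate and on to lactate or the mitochondrion: 33 genes for glucose and lactate transporters, the glycolytic enzymes, the PFKFB and PDK regulatory enzymes, pyruvate dehydrogenase and the mitochondrial pyruvate carrier. They were chosen by name for their place in the pathway, with earlier results of these data known. All 33 had a row in the deposited table of 19727 genes. The cells were DU145, an established human prostate cancer line. One group of stable cells carried the control lentivirus-NC (labelled NC, genotype normal), and the other a lentivirus that overexpresses circCSPP1, a circular RNA made from exons of CSPP1 (labelled OE). Both groups had gone through lentiviral infection and puromycin selection, and each was sequenced as 3 libraries of polyadenylated RNA. Nothing in the labels says whether the 3 libraries of a group came from separate cultures, so the p-values measure the spread between these libraries, which may be technical. Each value is in FPKM, fragments scaled to transcript length and to the library's total, so that levels can be compared between genes.

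In glycolysis, glucose enters through GLUT transporters, is phosphorylated and split, and yields ATP, NADH and pyruvate. Phosphofructokinase-1 is the main control point, and the PFKFB enzymes set its rate by making or removing its activator, fructose 2,6-bisphosphate. Pyruvate either becomes lactate through lactate dehydrogenase, which regenerates NAD+, or enters mitochondria and becomes acetyl-CoA through pyruvate dehydrogenase, which the PDK kinases switch off. Cancer cells commonly keep making lactate when oxygen is present, and many of these genes are known targets of the hypoxia-inducible factors and of MYC.

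Some promoters of glycolytic genes are known for ACGTG, the core of the hypoxia response element. The stretches that hold it are shown for the 5 genes with an adjusted p under 0.05 in which it was found before the start. The sequences are from RefSeq on GRCh38.p14, on the plus strand, read 5′ to 3′, and capitals mark ACGTG on either strand. LDHA has a first stretch at chr11:18394366-18394395, positions -197 to -168 from a RefSeq start, and another at chr11:18394471-18394499, positions -92 to -64. The PGK1 stretch lies at chrX:78104043-78104072 (positions -205 to -176), that of ENO2 at chr12:6914450-6914478 (-130 to -102), that of GPI at chr19:34364818-34364846 (-174 to -146) and that of PDK3 at chrX:24465213-24465241 (-73 to -45).
LDHA, first stretch: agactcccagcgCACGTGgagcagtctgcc
LDHA, second stretch: actcaCACGTGggttcccgCACGTccgcc
PGK1: cggACGTGacaaacggaagccgCACGTctc
ENO2: acccgcgctcgtACGTGcgcctccgccgg
GPI: acactgcctgtaACGTGgaaggtgttcga
PDK3: cgcgcgccgcgtACGTGcagcaaccgact

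RefSeq gave promoter windows, from 250 bases before to 50 after a start, for 30 of the 33 genes. ACGTG was in a window of 18 of the 30 (60.0%), beside 32.6% of the 9725 tested genes with windows and 24.9% of all 27305 genes with windows. CACGTG, the E-box, which holds ACGTG on both strands, was in 8 of the 30 (26.7%), beside 12.8% and 8.8%. TGATGNAA, the C/EBP-ATF response element, was in 1 of them, HK1 (3.3%), beside 2.6% and 4.5%. Among the 9 genes with a window and an adjusted p under 0.05, 5 held ACGTG, and among the 21 others with a window 13 did. Genes with more windows had more chances of a match. Counted by window, ACGTG was in 36.7% of the windows of these genes, beside 25.4% of those of tested genes. CACGTG was in 13.3% beside 9.4%. A match is a stretch of letters and not a known binding site.

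The libraries held 28900000 to 36700000 fragments, as read from the steps between their low FPKM values, and the ranges of the 2 groups overlapped. CSPP1 had 9.11, 10.08 and 9.44 FPKM in NC and 14.47, 22.76 and 21.36 FPKM in OE (log2 fold change 0.94, standard error 0.17, adjusted p = 0.016, at most 0.075 with a library left out), and a gene-level value does not separate the linear, circular and vector RNA. OE replicate 1 stood apart from the other OE libraries. Its log2 values correlated at 0.9697 and 0.9790 with theirs, while those correlated at 0.9898 with each other and the NC libraries at 0.9914 to 0.9915. Departures from the group mean followed transcript GC content in all 3 OE libraries, upward in replicate 1 (Spearman's rho 0.784) and downward in replicates 2 and 3 (-0.733 and -0.482), and lay between -0.0565 and 0.0979 in NC. These are across 12305 genes, which are not independent replicates, and departures from a shared mean of 3 libraries balance each other. Results are therefore also given without it and after a correction for GC content and length. The epithelial markers KRT8, KRT18, KRT19, EPCAM and CDH1 identified an epithelial line, and all 5 were lower in OE, with summed levels of 2271 to 2361 FPKM in NC and 1046 to 1278 FPKM in OE. The leukocyte markers (PTPRC and CD3E among them) and the fibroblast and endothelial markers summed to at most 4.34 FPKM a list. The part of the epithelial difference in the results below was not tested. In these bulk libraries, less RNA per cell and fewer cells that make it cannot be told apart.

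Where genes of the pathway changed, most were lower in OE than in NC, and the exceptions were a glucose transporter and a PFKFB enzyme. Of the 32 genes tested, those whose mean over all libraries reached 1 FPKM, 8 fell (GPI, PFKL, PGK1, PGAM1, ENO2, LDHA, PFKFB4 and PDK3), 2 rose (SLC2A1 and PFKFB2) and 22 did not pass an adjusted p of 0.05. Those 10 are 31.25% of the 32, where 11.4% of the 12322 tested genes passed in limma with Benjamini-Hochberg adjustment, 4.69% higher and 6.66% lower. The median log2 fold change was -0.19 over the 32 genes and -0.0275 over all tested genes. Of the 32, 26 lay below 0 and 6 above it, where 46% of all tested genes lay above 0. The OE libraries were entirely below the NC libraries in 16 of the 32 genes (20.5% of all tested genes) and entirely above in 3 (16.0%). None of the 32 passed the study's thresholds (p under 0.01 before adjustment, and a log2 fold change of 1.5 or more in size), which 0.195% of the tested genes did, while 16 of the 32 had an unadjusted p under 0.05 in limma (28.2% of all tested genes).

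**Figure D1:**
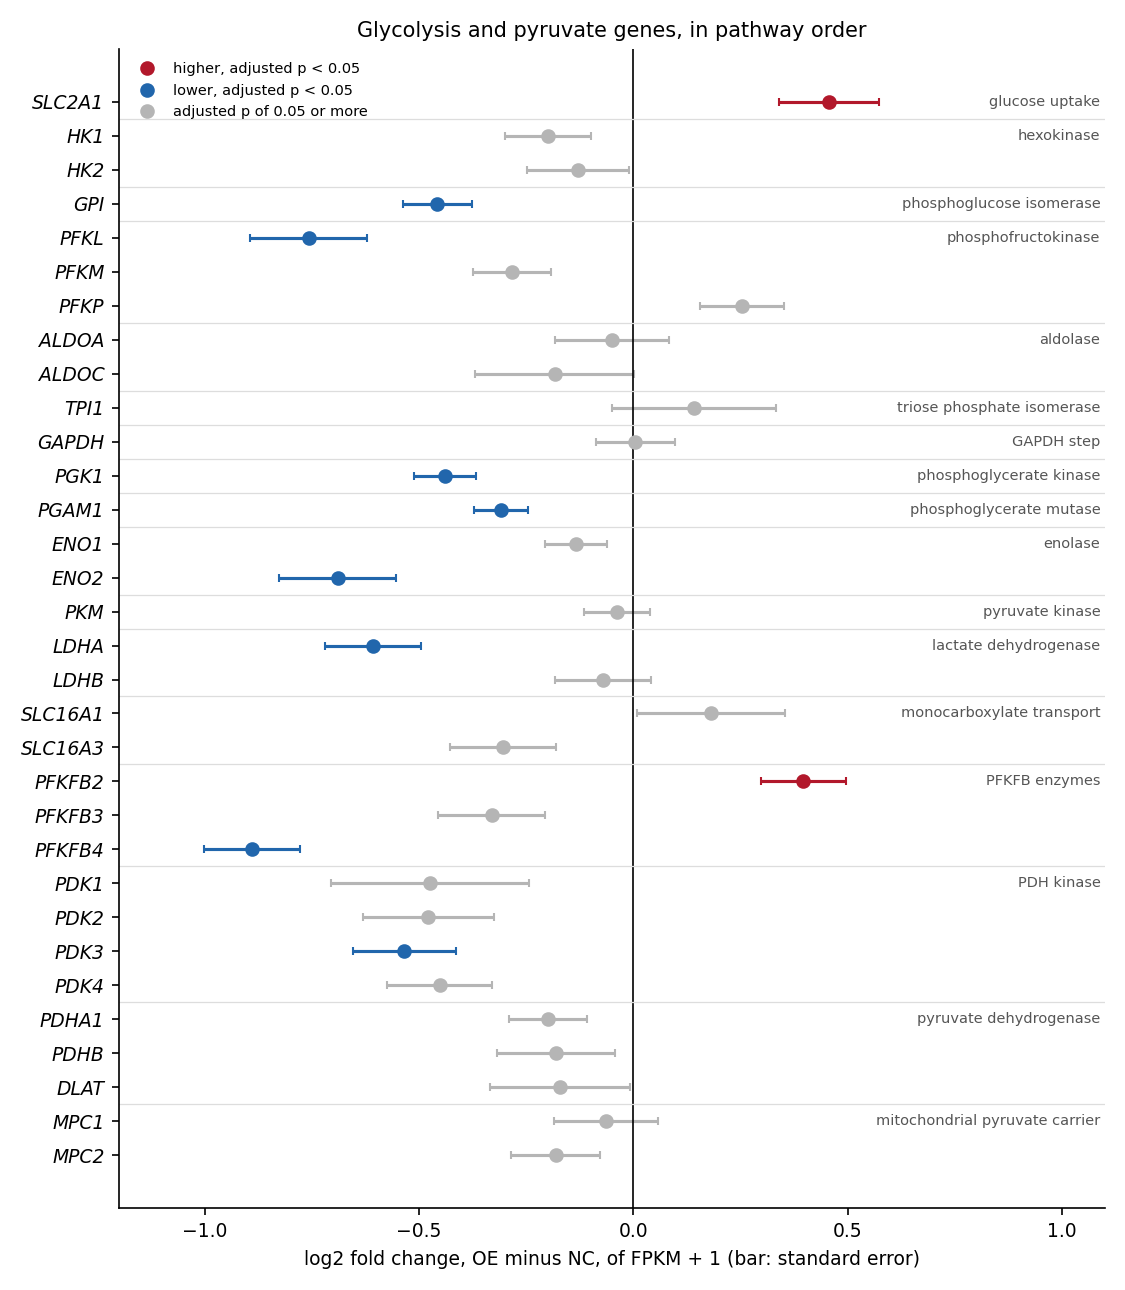
Log2 fold change of FPKM + 1, OE minus NC, of the 32 tested genes in pathway order. Points are limma estimates from 3 libraries a group and bars are standard errors, and the step is named at the right. The 8 genes that fell run from PFKFB4 at -0.89 to PGAM1 at -0.31, and the 2 that rose are SLC2A1 at 0.46 and PFKFB2 at 0.40.

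The count depended on single libraries. Only PFKFB4 kept an adjusted p under 0.05 when NC replicate 1 or NC replicate 2 was left out. PFKFB4 and ENO2 did without NC replicate 3, and PFKFB4 and LDHA did without OE replicate 3. Of all 12322 tested genes, 300, 317 and 407 passed without NC replicate 1, 2 and 3. Over all libraries left out in turn, OE replicates 2 and 3 included, that count ran from 300 to 3512. Without OE replicate 2, PFKFB2 was lost from the 10, while PDK1 and PDK4 passed, both lower. Without OE replicate 1, 16 of the 32 passed (28.5% of all tested genes), namely the same 10 and HK1, PFKM, ENO1, SLC16A3, PFKFB3 and PDK2, all lower. After the correction for GC content and length 16 also passed (28.5% of all tested genes), with PFKM, SLC16A3, PFKFB3, PDK2 and PDK4 lower and PFKP higher beside the same 10. With that correction and OE replicate 1 left out together, HK1 passed beside all of these and ENO1 did not. Of the 10 genes, the 9 other than PFKFB4 had their largest adjusted p with 1 library left out between 0.078 and 0.18, and the 6 genes that joined without OE replicate 1 between 0.27 and 0.56. Of 18 alternatives, GPI, PGK1, ENO2 and LDHA passed in 14, PFKL in 13, PGAM1 in 12, PFKFB2 in 11 and SLC2A1 in 9, and PDK3 in 10 of 17.

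Of the 2 glucose transporters, SLC2A1 was expressed and SLC2A3 was not. SLC2A1 (GLUT1, chromosome 1 from 42925375 to 42959176, minus strand, GENCODE 29 on GRCh38), the widespread basal glucose transporter, had 245.03, 241.05 and 247.97 FPKM in NC and 405.08, 309.50 and 303.01 FPKM in OE. All OE libraries lay above all NC libraries, and OE replicate 1 was the highest by a wide margin. SLC2A1 rose by 0.46 on the log2 scale (standard error 0.12, adjusted p = 0.046), and by 0.32 without OE replicate 1 (adjusted p = 0.0046). The adjusted p was 0.065 with median-ratio scaling, 0.052 with quantile normalization and 0.066 with no filter, and 0.16 at most with a library left out. SLC2A3 (GLUT3), the high-affinity transporter of neurons, was close to absent at 0.08, 0 and 0 FPKM in NC and 0.06, 0.12 and 0.03 FPKM in OE, an estimated 0 to 16 fragments a library, and was not tested.

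Glucose is trapped by hexokinase. HK1, the housekeeping form, made up 94.0% ± 0.367 (SD, n = 3) of the hexokinase FPKM in NC and 93.8% ± 0.413 (SD, n = 3) in OE. It had 115.27, 116.74 and 114.34 FPKM in NC and 115.31, 92.08 and 95.46 FPKM in OE, so OE replicate 1 matched the NC libraries while the other OE libraries were lower (log2 fold change -0.20, adjusted p = 0.24). HK2, the inducible form often raised in tumours, was low at 5.97 to 7.68 FPKM in all 6 libraries (log2 fold change -0.13, adjusted p = 0.52).

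GPI (chromosome 19 from 34359480 to 34402413, plus strand), which turns glucose 6-phosphate into fructose 6-phosphate, had 296.71, 286.73 and 292.67 FPKM in NC and 232.12, 197.01 and 209.51 FPKM in OE. It fell by 27.1% with no overlap between the groups (log2 fold change -0.46, standard error 0.081, adjusted p = 0.015). GPI was among the 4 genes that also passed with an ordinary 2-sample test per gene, with PGK1, PGAM1 and PFKFB4.

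At the phosphofructokinase-1 step, one isozyme fell and the groups overlapped in the sum. PFKL, the liver-type subunit (chromosome 21 from 44300051 to 44327376, plus strand), had 161.43, 171.88 and 160.52 FPKM in NC and 120.01, 82.48 and 91.86 FPKM in OE. OE replicate 1 lay closest to the controls, still with no overlap, with a difference of -0.76 on the log2 scale (standard error 0.14, adjusted p = 0.016), or -0.91 without that library. PFKP, the platelet-type subunit and the most abundant of the 3, had 291.76, 287.27 and 287.68 FPKM in NC and 396.99, 311.92 and 329.80 FPKM in OE. Every OE library was above the controls, with a log2 fold change of 0.25 that missed the threshold (adjusted p = 0.14). PFKM, the muscle-type subunit, had 76.20 to 82.84 FPKM in NC and 60.02 to 71.10 FPKM in OE (log2 fold change -0.28, adjusted p = 0.088).

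The sum of the 3 was 533 ± 7.63 FPKM (SD, n = 3) in NC and 510 ± 69.8 FPKM (SD, n = 3) in OE, and the groups overlapped. The share of PFKP in that sum was 54.2% ± 0.794 in NC and 68.0% ± 0.592 in OE (SD, n = 3 each), and that of PFKL 30.9% ± 0.922 and 19.1% ± 1.15. The shares were close within each group, OE replicate 1 included, at 67.5%, 68.6% and 67.8% for PFKP in OE. These shares were described and not tested.

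**Figure D2:**
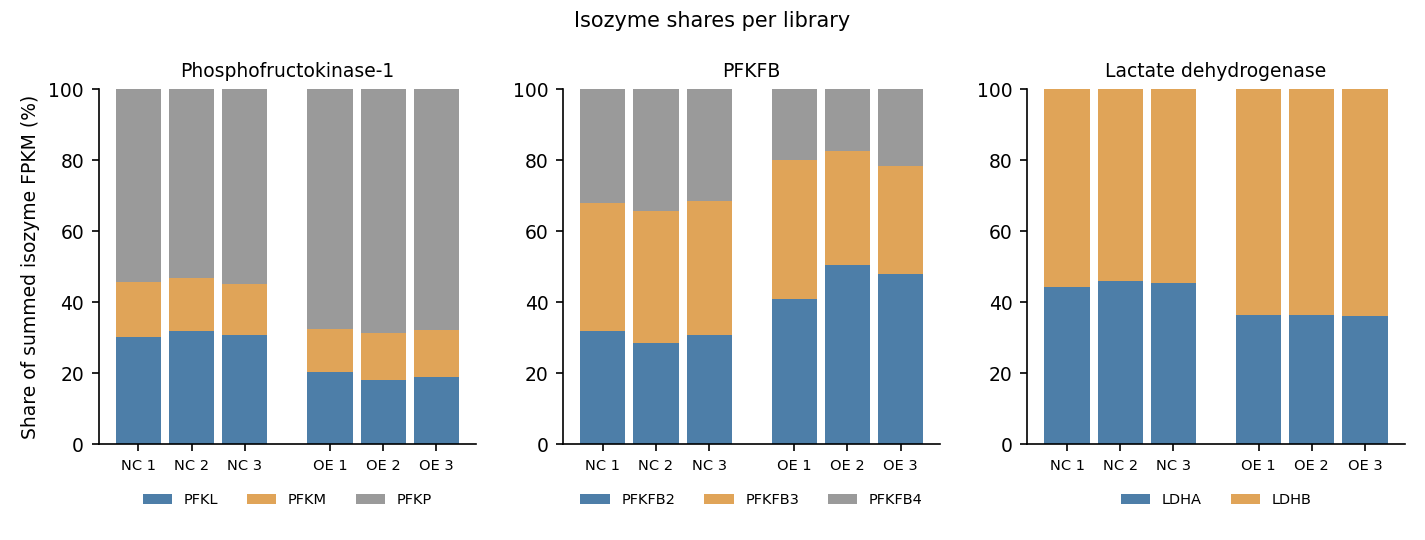
Share of each isozyme in the summed FPKM of its step, in percent, for phosphofructokinase-1 (PFKL, PFKM, PFKP), the PFKFB enzymes and lactate dehydrogenase (LDHA, LDHB). Each bar is 1 library, NC at the left and OE at the right. The PFKP share is larger and the PFKL, PFKFB4 and LDHA shares are smaller in every OE library than in every NC library.

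At the aldolase and triose phosphate steps no gene passed the test. ALDOA, the main aldolase, which splits fructose 1,6-bisphosphate, had 669.59, 645.89 and 714.93 FPKM in NC and 780.72, 535.84 and 666.05 FPKM in OE. The OE libraries lay on both sides of the controls (log2 fold change -0.05, adjusted p = 0.85). ALDOC, the brain form, was low at 1.99 to 4.02 FPKM (log2 fold change -0.18, adjusted p = 0.56). TPI1, which interconverts the triose phosphates, ranged from 335.61 to 489.35 FPKM in NC and from 385.97 to 590.86 FPKM in OE (log2 fold change 0.14, adjusted p = 0.68).

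GAPDH, which makes NADH in glycolysis and serves as a common reference gene in qPCR, had 3381.87, 3394.31 and 3466.46 FPKM in NC and 3863.80, 3016.46 and 3449.11 FPKM in OE. The NC libraries agreed closely, while the OE libraries spread around them, with replicate 1 above and replicate 2 below (log2 fold change 0.0049, standard error 0.092, adjusted p = 0.98). It ranked 6 or 7 among all genes in every library. GENCODE lists 62 GAPDH pseudogenes, and how shared reads were assigned is not given in the sources used here.

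Next come the step that yields the first ATP and the one that moves its phosphate, and both fell with little spread. PGK1, phosphoglycerate kinase (X chromosome from 77910739 to 78129296, plus strand), had 123.95, 132.11 and 123.39 FPKM in NC and 92.54, 91.99 and 94.50 FPKM in OE. The OE libraries agreed within a few FPKM, OE replicate 1 included, and PGK1 fell by 26.5% (log2 fold change -0.44, standard error 0.072, adjusted p = 0.011). PGAM1, phosphoglycerate mutase (chromosome 10 from 97426160 to 97433441, plus strand), had 337.18, 344.27 and 347.65 FPKM in NC and 283.01, 271.26 and 276.52 FPKM in OE.

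PGAM1 fell by 19.3% with no overlap (log2 fold change -0.31, standard error 0.063, adjusted p = 0.023), the smallest change among the 10 genes, and its adjusted p was 0.058 with median-ratio scaling. It has 13 pseudogenes in GENCODE and PGK1 has 1.

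Enolase makes phosphoenolpyruvate. ENO1, the ubiquitous form, had 2616.02, 2608.14 and 2755.67 FPKM in NC and 2598.58, 2236.81 and 2448.34 FPKM in OE, all OE libraries just below the controls (log2 fold change -0.13, adjusted p = 0.27, and -0.18 with an adjusted p of 0.041 without OE replicate 1). After the correction for GC content and length its log2 fold change was -0.11 (adjusted p = 0.155). With OE replicate 1 also left out it was -0.088 (adjusted p = 0.21). ENO2 (chromosome 12 from 6913745 to 6923698, plus strand), the neuron-specific form and a neuroendocrine marker in prostate cancer, had 38.45, 46.13 and 33.36 FPKM in NC and 25.87, 21.44 and 24.25 FPKM in OE. ENO2 fell with no overlap between the groups (log2 fold change -0.69, standard error 0.14, adjusted p = 0.021). It made up 1.46% ± 0.271 of the enolase FPKM in NC and 0.972% ± 0.0197 in OE (SD, n = 3 each).

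PKM, pyruvate kinase, had 2324.49, 2318.61 and 2250.65 FPKM in NC and 2483.09, 2105.65 and 2143.86 FPKM in OE, with OE replicate 1 above and the others below the controls (log2 fold change -0.04, adjusted p = 0.80). A gene-level value does not separate its M1 and M2 splice forms. With ENO1 and GAPDH, PKM held 70.1% to 72.7% of the summed FPKM of the 17 enzymes from hexokinase to lactate dehydrogenase, and the 17 summed to 1.95% to 1.99% of each NC library's total and 1.74% to 2.05% of each OE library's total. Of these 17 enzymes 6 fell and 0 rose in limma, beside 6.66% and 4.69% of all tested genes, and 8 had an unadjusted p under 0.05 in either direction, beside 28.2%. After the correction for GC content and length PFKP was higher. Their median log2 fold change was -0.18.

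Of the lactate dehydrogenase subunits, LDHA fell and LDHB did not pass the test. LDHA, the subunit that favours lactate formation (chromosome 11 from 18394388 to 18408425, plus strand), had 408.93, 429.36 and 441.20 FPKM in NC and 234.98, 302.27 and 307.70 FPKM in OE. It fell by 34.0%, with no overlap and with OE replicate 1 the lowest (log2 fold change -0.61, standard error 0.11, adjusted p = 0.017), and without that library the log2 fold change was -0.48. LDHB, the subunit that favours pyruvate formation, had 514.56, 504.03 and 530.13 FPKM in NC and 410.29, 530.75 and 544.82 FPKM in OE. Only OE replicate 1 was below the controls (log2 fold change -0.07, adjusted p = 0.73), and without it the log2 fold change was 0.06.

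Although OE replicate 1 was low for both subunits, the share of LDHA was alike in the OE libraries, at 36.4%, 36.3% and 36.1%, beside 44.3%, 46.0% and 45.4% in NC. The means were 45.2% ± 0.875 in NC and 36.3% ± 0.162 in OE (SD, n = 3 each), given as a description. LDHA has 6 and LDHB 3 pseudogenes in GENCODE.

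**Figure D3:**
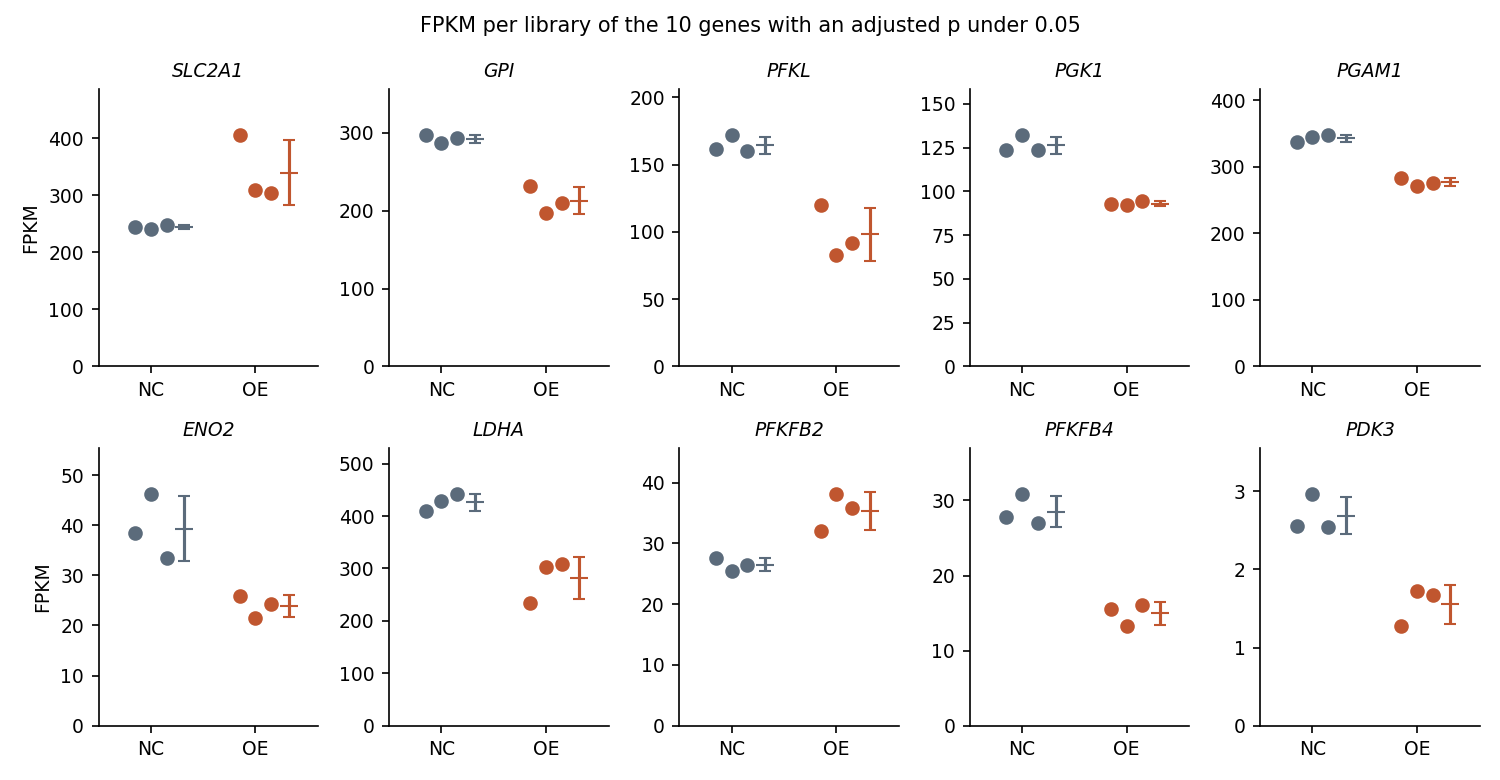
FPKM in each library of the 10 genes with an adjusted p under 0.05, with NC at the left and OE at the right of each panel, on axes that start at 0. Points are libraries in the order of their replicate numbers, and the bar beside them is the mean ± SD (n = 3). The groups do not overlap in any of the 10, and OE replicate 1 lies nearest to NC for GPI, PFKL, PGAM1, ENO2 and PFKFB2 and farthest for SLC2A1, LDHA and PDK3.

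Lactate leaves and enters cells through monocarboxylate transporters. SLC16A3 (MCT4), the exporter of glycolytic cells, had 277.12, 278.52 and 277.93 FPKM in NC and 275.67, 199.29 and 207.17 FPKM in OE. OE replicate 1 was just under the controls and the others far lower (log2 fold change -0.30, adjusted p = 0.16, and -0.45 with an adjusted p of 0.0021 without OE replicate 1). SLC16A1 (MCT1), which carries lactate in either direction, had 25.83 to 30.43 FPKM in NC and 25.63, 41.70 and 32.74 FPKM in OE (log2 fold change 0.18, adjusted p = 0.54). BSG, the chaperone of both transporters, had 608 ± 16.2 FPKM in NC and 633 ± 44.6 FPKM in OE (SD, n = 3 each, adjusted p = 0.67).

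The PFKFB enzymes, which make and remove fructose 2,6-bisphosphate, moved in opposite directions. PFKFB4 (chromosome 3 from 48517684 to 48562015, minus strand), a hypoxia-induced form, had 27.82, 30.80 and 26.94 FPKM in NC and 15.53, 13.22 and 16.14 FPKM in OE. It fell by 47.5%, the largest change among the 32 genes by log2 fold change, and its groups were far apart (-0.89, standard error 0.11, adjusted p = 0.0053). It alone among the 32 passed an adjusted p of 0.05 in all 18 alternatives, each library left out in turn among them.

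PFKFB2 (chromosome 1 from 207034366 to 207081024, plus strand), known as the heart form, had 27.67, 25.45 and 26.39 FPKM in NC and 31.96, 38.04 and 35.86 FPKM in OE. It rose by 33.1% with no overlap (log2 fold change 0.40, standard error 0.098, adjusted p = 0.043), and by 0.46 on the log2 scale without OE replicate 1. PFKFB3, the form with the highest kinase activity relative to its phosphatase, had 31.52, 33.48 and 32.44 FPKM in NC and 30.72, 24.00 and 22.80 FPKM in OE (log2 fold change -0.33, adjusted p = 0.13, and -0.46 with an adjusted p of 0.0058 without OE replicate 1). In NC the 3 forms were about equal, while in OE the share of PFKFB2 was 46.5% ± 5.01 beside 30.3% ± 1.76 in NC, and that of PFKFB4 19.7% ± 2.01 beside 32.6% ± 1.55 (SD, n = 3 each, no test).

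All 4 PDK kinases, which inactivate pyruvate dehydrogenase, had a log2 fold change below 0, where 46% of all tested genes lay above 0. Of the 4, 1 passed the test, beside 11.4% of all tested genes. PDK3 (X chromosome from 24465221 to 24541862, plus strand) had 2.56, 2.96 and 2.55 FPKM in NC and 1.27, 1.72 and 1.67 FPKM in OE. It fell with no overlap (log2 fold change -0.53, standard error 0.12, adjusted p = 0.031), on an estimated 79 to 180 fragments a library, and its adjusted p was 0.058 with quantile normalization. PDK2, by far the most abundant, had 37.21, 41.77 and 37.91 FPKM in NC and 34.73, 22.75 and 26.72 FPKM in OE, with OE replicate 1 nearest to the controls (log2 fold change -0.48, adjusted p = 0.088, and -0.64 with an adjusted p of 0.0063 without it).

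PDK4, the starvation-induced form, had 2.01 to 2.35 FPKM in NC and 1.13 to 1.65 FPKM in OE (log2 fold change -0.45, adjusted p = 0.055). PDK1, the form most tied to hypoxia, had 4.70, 5.75 and 5.74 FPKM in NC and 2.39, 5.51 and 3.38 FPKM in OE, and its groups overlapped (log2 fold change -0.47, adjusted p = 0.23). The summed PDK FPKM was 49.3 ± 3.12 in NC and 34.7 ± 4.20 in OE (SD, n = 3 each), with all OE libraries below all NC libraries.

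Pyruvate dehydrogenase itself and the carrier that feeds it differed less than the PDK kinases, with a median log2 fold change of -0.18 beside -0.48. That of the 17 enzymes from hexokinase to lactate dehydrogenase was also -0.18. The summed pyruvate dehydrogenase FPKM was 80.4 ± 2.12 in NC and 70.9 ± 8.90 in OE (SD, n = 3 each), with all OE libraries below all NC libraries. PDHA1, the subunit that PDK phosphorylates, had 34.84, 31.56 and 33.18 FPKM in NC and 26.87, 29.51 and 30.02 FPKM in OE (log2 fold change -0.20, adjusted p = 0.21). PDHB, its partner, and DLAT, the acetyltransferase core, had log2 fold changes of -0.18 and -0.17, and their OE values of 15.72 to 22.45 and 18.31 to 28.97 FPKM overlapped the controls. MPC2, the more abundant carrier subunit, had 31.93, 31.38 and 30.07 FPKM in NC and 24.26, 30.03 and 28.00 FPKM in OE (log2 fold change -0.18, adjusted p = 0.30), and MPC1 had 1.98 to 2.75 FPKM over all libraries (-0.06, adjusted p = 0.78). Of these 5 genes 0 passed in limma (11.4% of all tested genes) and 0 had an unadjusted p under 0.05 (28.2%). None of them passed in any of the alternatives, the ordinary 2-sample test included.

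OE replicate 1 moved the estimates in a way that followed base composition. In 13 of the 13 genes with a transcript GC content of at least 55% its log2 value was above the mean of the other OE libraries, and in 7 of the 19 with a lower GC content. It was the highest of the 3 OE libraries in 19 of the 32 genes and the lowest in 11. The median over the 32 genes was -0.16, -0.21 and -0.27 for OE replicates 1, 2 and 3 set against the NC mean. The part of GC content in the group differences was not tested beyond the correction.

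**Figure D4:**
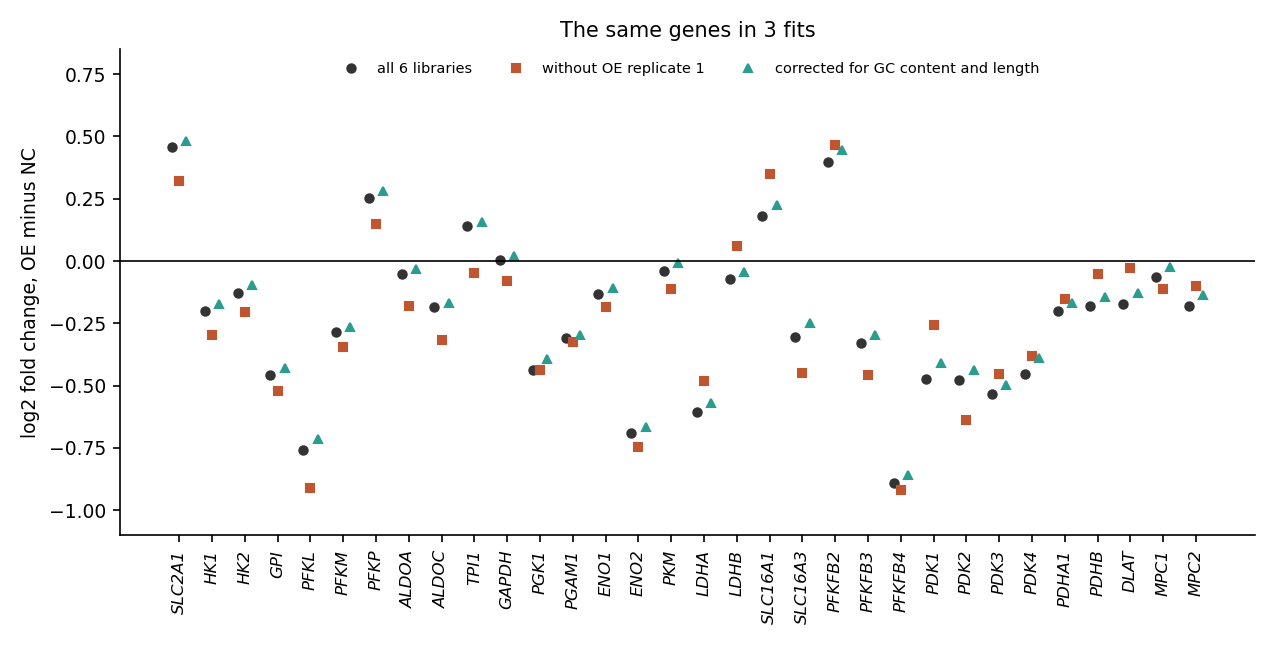
Log2 fold change, OE minus NC, of the 32 tested genes in 3 fits: all 6 libraries (circles), without OE replicate 1 (squares) and after the correction for GC content and length (triangles). All 10 genes with an adjusted p under 0.05 keep their sign in the 3 fits, with PFKL between -0.91 and -0.71 and LDHA between -0.61 and -0.48, while TPI1, GAPDH and LDHB change sign without OE replicate 1.

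Genes of the neighbouring pathways, 112 in 7 lists written from general knowledge, were read from the same fit. Of 84 tested, 12 fell and 5 rose (20.2%, beside 11.4% of all tested genes), with a median log2 fold change of -0.17. The count was 5, 6 and 7 without NC replicate 1, 2 or 3, 30 without OE replicate 1 and 8 without OE replicate 3. SLC2A4, GPT2, EPAS1, FBP1 and PGM1 passed in every alternative run for them, and the other 12 missed the threshold in at least 1. Among 16 tested further isozymes and transporters, 3 passed. HKDC1, a further hexokinase, rose from 2.08 ± 0.192 to 4.50 ± 0.577 FPKM (log2 fold change 0.83). SLC2A4 (GLUT4), the insulin-responsive transporter, fell from 2.62 ± 0.462 to 1.05 ± 0.137 FPKM (-0.81), and SLC2A10 from 10.8 ± 0.646 to 6.38 ± 0.212 FPKM (-0.67), each with SD and n = 3.

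Of 9 tested regulators of these genes, 3 fell and 0 rose, beside 6.66% and 4.69% of all tested genes. EPAS1 (HIF-2α), a hypoxia-inducible factor, fell from 52.1 ± 2.23 to 31.4 ± 1.77 FPKM (SD, n = 3 each, log2 fold change -0.71, adjusted p = 0.0049). HIF1A, whose protein drives many glycolytic genes in hypoxia, had 131.35, 135.48 and 133.84 FPKM in NC and 70.99, 96.23 and 94.06 FPKM in OE. All OE libraries were below the controls and replicate 1 was the lowest (-0.62, standard error 0.12, adjusted p = 0.021).

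MLXIPL (ChREBP), a glucose-sensing factor, fell from 5.15 ± 0.602 to 2.63 ± 0.637 FPKM (SD, n = 3 each, log2 fold change -0.77, adjusted p = 0.022). MYC had 33.62, 32.05 and 26.93 FPKM in NC and 72.38, 14.97 and 28.04 FPKM in OE, and the OE libraries lay above, below and within the controls (adjusted p = 0.98). The activity of these factors was not measured, since HIF-1α and HIF-2α are controlled mainly through protein stability.

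Genes that run the pathway backwards or store glucose held 4 of 12 past the threshold, beside 11.4% of all tested genes. FBP1, which opposes phosphofructokinase-1 in gluconeogenesis, fell from 13.1 ± 1.25 to 5.41 ± 0.666 FPKM (SD, n = 3 each, log2 fold change -1.14, adjusted p = 0.0038), a larger change than in any of the 32 genes. PGM1, which links glucose 6-phosphate to glycogen, fell from 34.7 ± 2.23 to 18.1 ± 1.01 FPKM (-0.90, adjusted p = 0.0033), GYS1, glycogen synthase, also fell (-0.56), and PYGB, a glycogen phosphorylase, rose (0.38, adjusted p = 0.0499). PYGB passed in 5 of 18 alternatives, and its adjusted p reached 0.19 with a library left out.

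Among 12 genes for other fates of pyruvate and the rest of the dehydrogenase system, 2 rose and 0 fell, beside 4.69% and 6.66% of all tested genes. GPT2, the mitochondrial alanine aminotransferase, had 42.84, 43.04 and 41.33 FPKM in NC and 77.06, 70.68 and 68.73 FPKM in OE, with tight and widely separated groups (log2 fold change 0.75, adjusted p = 0.0037). PCK2, mitochondrial PEP carboxykinase, had 48.77, 49.11 and 43.59 FPKM in NC and 93.63, 71.39 and 72.81 FPKM in OE (0.73, adjusted p = 0.013). Both are known targets of ATF4, the amino acid stress factor.

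Of 9 tested genes of the NADH shuttles, which pass its electrons into mitochondria, 2 passed, beside 11.4% of all tested genes. GOT1, the cytosolic aspartate aminotransferase, was higher (log2 fold change 0.41) and GPD1L lower (-0.46). Of 17 citric acid cycle genes 3 fell, SUCLG2 (-0.70), IDH2 (-0.57) and OGDH (-0.52), and 0 rose, beside 6.66% and 4.69% of all tested genes. Of 9 tested pentose phosphate genes 0 passed in limma (11.4% of all tested genes) and 0 had an unadjusted p under 0.05 (28.2%).

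**Figure D5:**
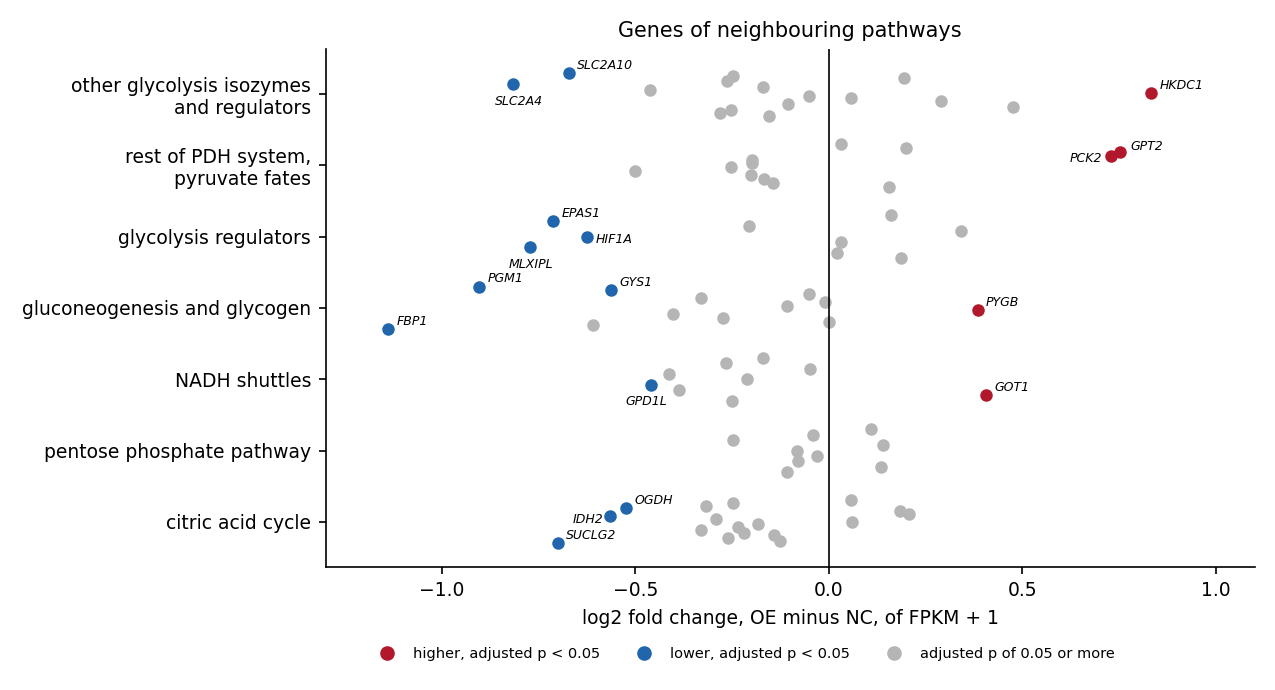
Log2 fold change of FPKM + 1, OE minus NC, of the 84 tested genes in 7 neighbouring lists, 1 point a gene, spread vertically for legibility. Named points have an adjusted p under 0.05. FBP1 at -1.14 is the lowest and HKDC1 at 0.83 the highest, and no pentose phosphate gene is named.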

How the data were processed

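The authors deposited 1 table of FPKM values per gene and library, from paired-end sequencing of poly(A) RNA on hg38 per the labels. The aligner and annotation are not given in the sources used here, and 0 per-sample columns were left unused. Values were taken to log2(FPKM + 1), a scale that understates changes of low genes. Genes averaging 1 FPKM or more over the 6 libraries (12322) entered a limma 3.58.1 fit under R 4.3.3 (eBayes with trend, two-sided, 3 against 3, no covariate), with Benjamini-Hochberg adjustment over all of them and a threshold of 0.05. With 3 against 3, an exact permutation test cannot give a p below 0.1. The fit was tested on simulated data.

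Depth was inferred from low values in genes whose transcript is under 800 nt, of which 91.8% to 98% were whole multiples within 0.15 of a fragment (30% by chance). Coordinates, lengths and GC content came from GENCODE 29, promoters from RefSeq. Shares and sums had no test. A few measured genes are not reported here. The genes and lists were chosen with earlier results of these data known. Library values were given for genes with an adjusted p under 0.05, for the most abundant gene of a step and for GAPDH. In the neighbouring lists, genes with an adjusted p under 0.05 were named, with values for the 2 largest rises and falls of a list. The library values of other genes, and those of HIF1A, MYC and BSG, were added after they had been seen. Alternatives were pseudocounts of 0.1 and 0.01, other filters, scalings and variance models, the replicate number as a block, leaving out each library, and a loess correction for GC content and length. That correction together with leaving out OE replicate 1 was chosen after seeing the data.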

Additional observations from a re-analysis of the deposited data

How the results depend on the processing

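Of the 32 genes, 10 passed an adjusted p of 0.05. Between 8 and 10 did with other pseudocounts, filters, scalings and robust eBayes, 4 did with no moderation of the variance, 16 after the GC content and length correction and 17 when that correction was combined with leaving out OE replicate 1, and the range was 1 to 16 with each library left out in turn. Of the neighbouring genes, 17 passed, against 8, 31 and 32 under those last 3 settings and 5 to 30 with a library left out. Over all genes 1399 passed (578 higher, 821 lower), against 834, 3513 (1818 higher, 1695 lower) and 3783, and 300 to 3512. The median log2 fold change of the 32 genes was -0.17 to -0.23 throughout. Same-numbered libraries of the 2 groups deviated from their group means with correlations of 0.0734, 0.00653 and 0.0572. Those with unlike numbers did so at -0.067 to 0.0358. These weak correlations do not settle whether the numbers pair the libraries. With the replicate number as a block 6 of the 32 genes (ENO2, GPI, LDHA, PFKFB4, PFKL and PGK1) and 923 of all genes passed, and 14 of the neighbouring genes. None of the 10 genes and of the 17 neighbouring genes that passed changed sign under any of the alternatives run. The other genes that passed were not checked for this. Signs turned in genes near 0, and the cause was not tested. With each library left out in turn, the ranges were -0.18 to 0.093 for ALDOA, -0.047 to 0.27 for TPI1, -0.082 to 0.097 for GAPDH, -0.11 to 0.0060 for PKM, -0.15 to 0.059 for LDHB and -0.11 to 0.016 for MPC1. MPC1 also turned with quantile normalization (0.072) and LDHB when the correction was combined with leaving out OE replicate 1 (0.020). At the depth of these libraries 1 fragment on 2000 nt is worth 0.0136 to 0.0173 FPKM, so depth limits SLC2A3 and, less, PDK3, PDK4, ALDOC and MPC1.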
